A study of Ovis aries with 8 samples.

Results

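The liver genes that take up and activate glycerol, join it to fatty acids and load the product onto lipoproteins were followed in preweaning lambs fed milk replacer at 2 levels. The 10 genes, AQP9, GK, GPD1, GPAM, AGPAT2, LPIN1, LPIN2, DGAT1, DGAT2 and MTTP, were chosen by symbol for their place in the pathway, and all 10 were found among the 27729 genes of the deposited table. Liver was taken at slaughter from 8 Assaf lambs. The 4 ADL lambs had milk replacer ad libitum (192 mL per kg of live body weight), weighed 10.4 to 12.45 kg and were 33 to 36 days old. The 4 RES lambs were restricted to 120 mL per kg, weighed 7.5 to 8.7 kg and were 33 to 36 days old. No genotype or sex is given in the labels used here, and each library is the whole liver RNA of 1 lamb. The comparison asks how the level of milk replacer alters these genes.

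Glycerol released from stored fat reaches the liver in the blood and enters hepatocytes through the channel AQP9. Glycerol kinase (GK) turns it into glycerol 3-phosphate, which the cytosolic dehydrogenase GPD1 interconverts with dihydroxyacetone phosphate of glycolysis and gluconeogenesis. Glycerol 3-phosphate can leave for glucose or receive fatty acids in turn from GPAM and AGPAT2, lose its phosphate to a lipin (LPIN1, LPIN2) and take a last fatty acid from DGAT1 or DGAT2. The triglyceride is then stored in droplets or loaded by MTTP onto apolipoprotein B. In ruminants the liver exports little triglyceride in these lipoproteins, and LPIN1 also serves as a transcriptional coactivator in fasting.

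Between 15134039 and 17879918 reads per lamb were assigned to genes. These reads were recovered from the deposited values. Levels are in TPM, a unit in which reads are corrected for gene length and sequencing depth, errors after ± are SDs, and log2 fold changes are RES over ADL on log2(TPM + 0.5). The 5 hepatocyte markers, led by albumin (ALB), summed to 44520 to 140283 TPM in every lamb, so the liver label held. One library, ADL 3, lies with the RES lambs across many genes, so each member's result is given with all 8 lambs and again without ADL 3. Its quality weight was the lowest (0.16, against 0.63 to 2.73 in the others). That weight is estimated from the distance of a lamb to its own group's fit. It therefore restates the position of ADL 3 and is no separate measure of the library. The second comparison was made because that lamb's position was already known, and its p-values carry that choice. ADL 3 weighed 12.05 kg, within the weights of the other ADL lambs. Its values lay on the ADL side in some genes, TKFC and MOGAT1 among them, and on the RES side in others, such as GK, ACSL1 and GPAT3. In 4.48% of the genes tested, the ADL lambs, ADL 3 included, did not overlap the RES lambs. Some genes separate by chance with so few lambs, so this share was read as no result about ADL 3. Whether the label of ADL 3 or the animal stands behind its position cannot be told apart. Where bulk liver RNA differs, fewer cells of a type and less RNA per cell cannot be told apart. The sum of 4 endothelial markers had the split of GK, being 230 to 278 TPM in the ADL lambs other than ADL 3, 133 TPM in ADL 3 and 121 to 200 TPM in RES. LYVE1, the highest of them in every lamb, had 126 to 169, 64.9 and 49.9 to 111 TPM, and none of the 4 was at 0. PECAM1 split likewise, at 43.4 to 46.7, 32.0 and 27.8 to 36.4 TPM. STAB1 did not, at 11.4 to 16.1, 14.4 and 11.2 to 13.8 TPM. STAB2 had 44.3 to 46.9, 21.6 and 26.8 to 46.8 TPM, so its RES lambs reached the ADL values. The part of endothelial cells in the results that split the same way was not tested.

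AQP9 was the most abundant of the 10 genes in 6 lambs, and LPIN1 in ADL 1 and ADL 2. Averaged over the 8 lambs, the levels ran from AQP9 (399 ± 163 TPM) through MTTP (175 ± 42.6), GPD1 (111 ± 70.5), AGPAT2 (103 ± 19.1), LPIN1 (102 ± 105) and GK (52.8 ± 57.2) to DGAT1 (39.4 ± 7.44), DGAT2 (29.8 ± 12.2), LPIN2 (17.9 ± 7.66) and GPAM (16.2 ± 10.3). Apart from AQP9 and MTTP, neighbours in this order lay within the larger of their SDs. TPM depends on the gene length in the table, which was 828 nt for DGAT1 and 14059 nt for LPIN2, so levels between genes rest on those lengths, while fold changes do not. The genes also differed in spread, with a highest lamb 39.7 times the lowest in LPIN1, 16.1 times in GK, 8.95 times in GPAM and 8.37 times in GPD1, against 1.79 times in DGAT1 and 1.88 times in AGPAT2.

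**Figure D1:**
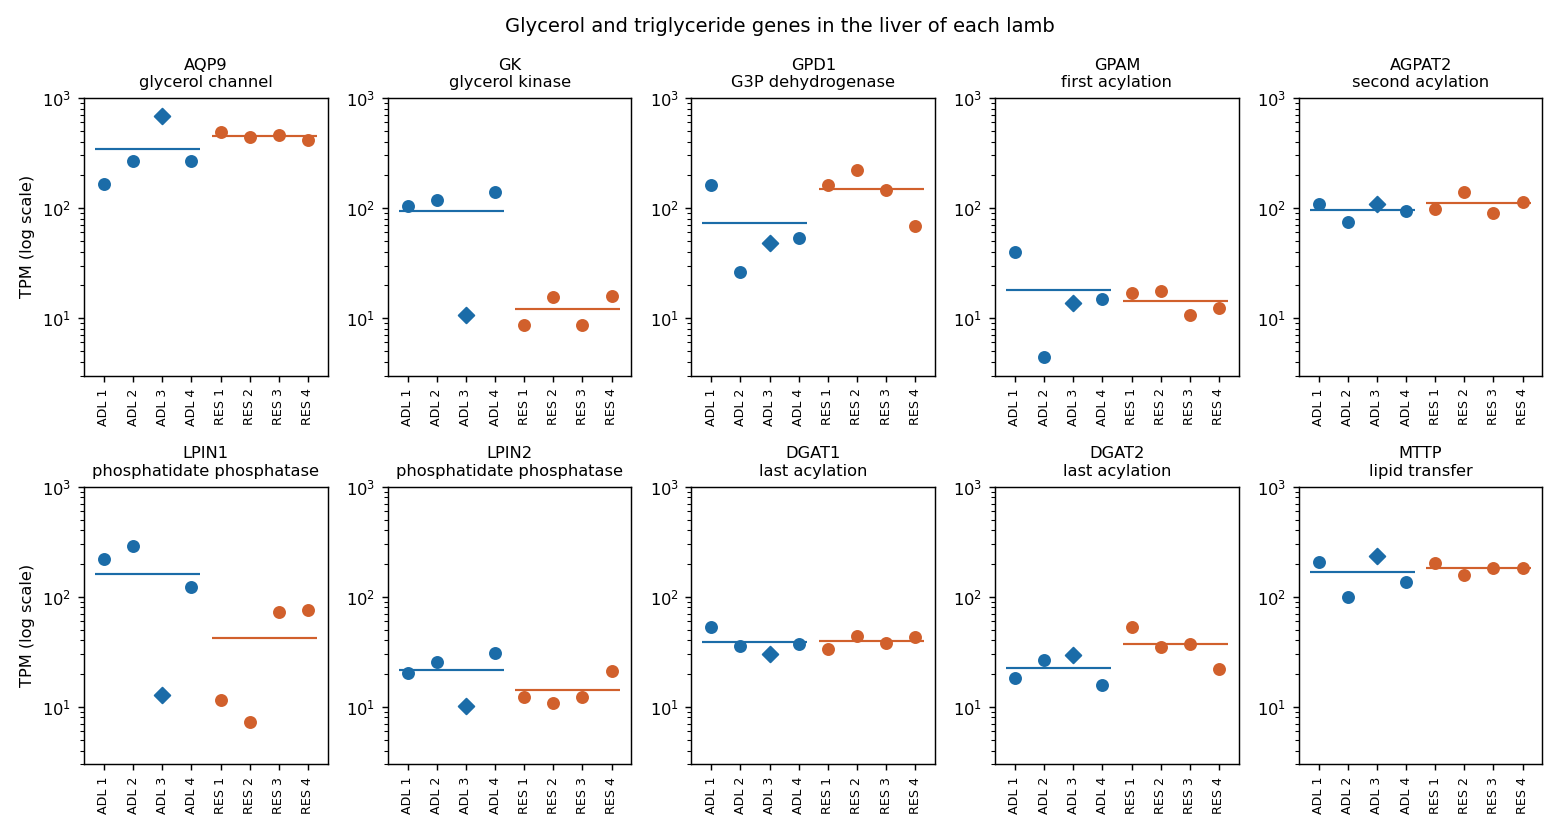
TPM (log scale) of the 10 genes in each lamb, with ADL in blue, RES in orange, ADL 3 as a diamond and a line at each group's mean of 4 lambs. GK stood at 105 to 139 TPM in ADL 1, ADL 2 and ADL 4 and at 8.64 to 15.7 TPM in the RES lambs, with ADL 3 at 10.8 TPM, whereas AGPAT2 and DGAT1 varied by less than 2-fold.

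Glycerol kinase had the largest difference of the 10 genes. The gene lies on chromosome X at 27885584 to 27965736 (plus strand, 23 exons) in the coordinates of the deposited table (build not given in the sources used here), which are used throughout. GK had 105, 119, 10.8 and 139 TPM in ADL 1 to ADL 4 and 8.67, 15.6, 8.64 and 15.7 TPM in RES 1 to RES 4. All RES lambs were low, 3 ADL lambs were high, and ADL 3 lay inside the RES range. These values rested on 614 to 9915 reads per lamb, so counting error is small beside the gap.

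With all 8 lambs the mean was 93.3 ± 56.8 TPM in ADL and 12.2 ± 4.05 in RES (SD, n = 4 each), and the RES over ADL value of GK was -2.45 on the log2 scale (SE 0.71, limma adjusted p = 0.317; exact permutation p = 0.0857, two-sided). Without ADL 3, GK fell by 3.31 on the log2 scale (SE 0.25, limma adjusted p = 0.000822), from 121 ± 17.1 TPM in 3 ADL lambs. In the authors' deposited table, a DESeq2 comparison of all 8 lambs, GK is called (adjusted p = 0.000351), and its shrunken log2 fold change is -1.69. The kinase paralog GK5 showed no such split, at 32.4 to 39.8 TPM over the lambs, and GK2 did not exceed 0.0519 TPM.

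AQP9, the channel that precedes the kinase, lay the other way. It is on chromosome 7 at 49054998 to 49106411 (minus strand, 6 exons). AQP9 had 164, 269, 685 and 266 TPM in ADL 1 to ADL 4 and 494, 437, 460 and 413 TPM in RES 1 to RES 4. The RES lambs were close together and above ADL 1, ADL 2 and ADL 4, while ADL 3 was the highest of all.

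With 8 lambs the AQP9 value was 0.59 (SE 0.37, limma adjusted p = 0.661), with 346 ± 231 TPM in ADL and 451 ± 34.3 in RES (SD, n = 4 each). Without ADL 3 it rose by 0.98 on the log2 scale (SE 0.20, limma adjusted p = 0.0242), from 233 ± 59.8 TPM in 3 ADL lambs. The AQP9 call was lost when RES 1, RES 2 or RES 3 was also left out (adjusted p = 0.0727, 0.0572 and 0.0617). Its adjusted p in the authors' deposited table, over 8 lambs, is 0.834.

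GPD1, on chromosome 3 at 135854041 to 135859910 (minus strand, 8 exons), differed between lambs in another order. It had 161, 26.3, 48.6 and 52.9 TPM in ADL 1 to ADL 4 and 163, 220, 147 and 68.0 TPM in RES 1 to RES 4. ADL 3 lay with ADL 2 and ADL 4 here, and ADL 1 with the RES lambs. The RES over ADL value was 1.25 (SE 0.52, limma adjusted p = 0.496, unadjusted 0.0387) with 8 lambs and 1.17 (SE 0.60, limma adjusted p = 0.235) without ADL 3, so the difference of 72.3 ± 60.5 against 150 ± 62.9 TPM (SD, n = 4 each) did not pass in either. The exact permutation p of GPD1 with 8 lambs was 0.0857 (two-sided). Leaving out ADL 1 or ADL 2 moved the 8-lamb value to 1.74 or 0.88.

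GK relative to GPD1 compares 2 routes to glycerol 3-phosphate within a lamb, and such a ratio does not depend on how a library is scaled. GK TPM were 0.65, 4.51 and 2.63 times those of GPD1 in ADL 1, ADL 2 and ADL 4 and 0.222 times in ADL 3. In RES 1 to RES 4 the ratio was 0.0531, 0.0707, 0.0588 and 0.231. GPD1 thus exceeded GK in all RES lambs, in ADL 3 and in ADL 1. AQP9 TPM were 1.56 to 2.26 times those of GK in ADL 1, ADL 2 and ADL 4, 63.7 times in ADL 3 and 26.3 to 57.0 times in RES.

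**Figure D2:**
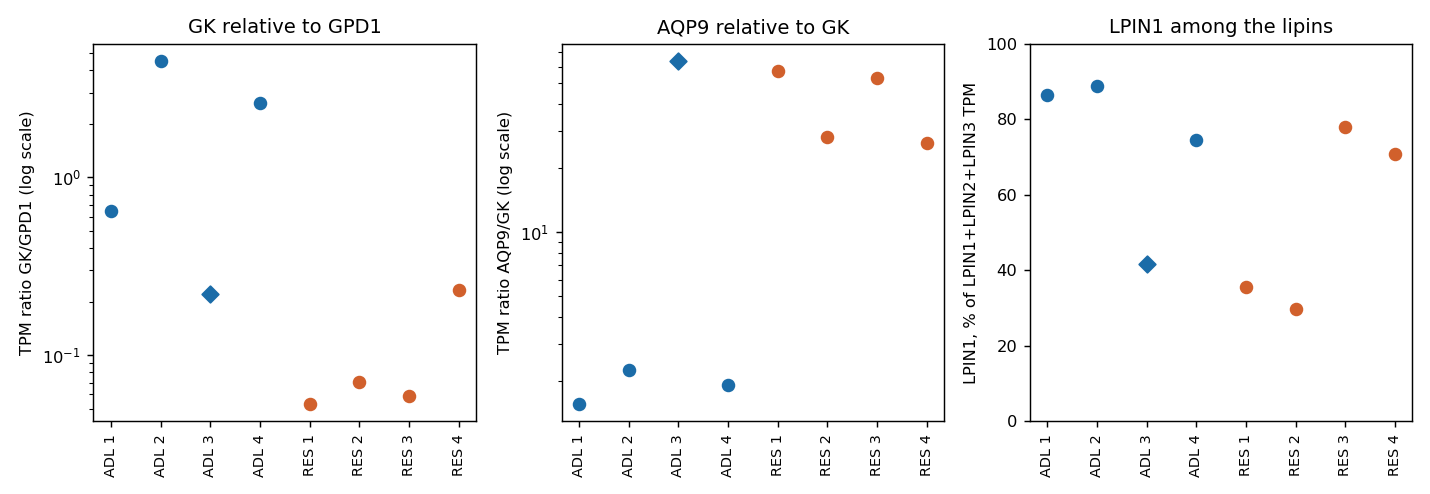
Within-lamb values for GK relative to GPD1 and AQP9 relative to GK (TPM ratios, log scale) and LPIN1 as a percent of the summed TPM of LPIN1, LPIN2 and LPIN3 (linear scale), with ADL in blue, RES in orange and ADL 3 as a diamond. In the first panel ADL 2 (4.51), ADL 4 (2.63) and ADL 1 (0.65) lie above the RES lambs and ADL 3, with ADL 1 nearest to RES 4 (0.231). In the second panel ADL 1, ADL 2 and ADL 4 stand apart from the RES lambs and ADL 3. In the third RES 3 (78.1%) lies among ADL 1, ADL 2 and ADL 4, and RES 4 (70.9%) lies just below them. ADL 3 (41.8%) lies near RES 1 (35.6%) and RES 2 (29.8%), so the groups overlap.

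GPAM and AGPAT2 did not separate the groups. GPAM, the mitochondrial enzyme that adds the first fatty acid (chromosome 22, 31583472 to 31652917, minus strand, 27 exons), had 39.6, 4.42, 13.7 and 14.8 TPM in ADL 1 to ADL 4 and 16.7, 17.6, 10.7 and 12.4 TPM in RES 1 to RES 4. Both its highest and its lowest lamb were ADL lambs, and the RES lambs lay between them. For GPAM the value was 0.02 (SE 0.52, limma adjusted p = 0.995) with 8 lambs and 0.01 (SE 0.60, limma adjusted p = 0.990) without ADL 3. Its sign turned under several alternatives, and it was -0.50 without ADL 2.

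AGPAT2, which adds the second fatty acid in the endoplasmic reticulum (chromosome 3, 2686070 to 2698330, plus strand, 6 exons), had the smallest ratio of highest to lowest lamb after DGAT1. It had 108, 74.3, 109 and 94.8 TPM in ADL 1 to ADL 4 and 97.7, 140, 90.3 and 113 TPM in RES 1 to RES 4, with the groups mixed. In log2 units RES lay 0.19 above ADL (SE 0.19, limma adjusted p = 0.796) with 8 lambs and 0.25 without ADL 3 (SE 0.19, limma adjusted p = 0.422).

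The lipins remove the phosphate from phosphatidate to give diacylglycerol. LPIN1, on chromosome 3 at 20469060 to 20516503 (plus strand, 19 exons), had 222, 291, 12.7 and 122 TPM in ADL 1 to ADL 4 and 11.5, 7.33, 73.2 and 75.7 TPM in RES 1 to RES 4. Its RES lambs fell into 2 pairs, RES 1 and RES 2 being low and RES 3 and RES 4 intermediate, and ADL 3 lay with the low pair. The RES over ADL value was -1.91 (SE 1.05, limma adjusted p = 0.613) with 8 lambs and -2.89 (SE 0.84, limma adjusted p = 0.0645) without ADL 3, and neither passed. Without ADL 3 every RES lamb was below every ADL lamb, but the exact permutation p of 0.0571 (two-sided) is the smallest that 35 assignments allow.

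LPIN2, on chromosome 23 at 37431293 to 37506769 (minus strand, 22 exons), had the same sign at a smaller size. Its levels were 20.2, 25.4, 10.2 and 30.8 TPM in ADL 1 to ADL 4 and 12.3, 10.9, 12.2 and 21.2 TPM in RES 1 to RES 4. ADL 3 was the lowest lamb, and RES 4 lay among the other ADL lambs. The RES over ADL value was -0.54 (SE 0.33, limma adjusted p = 0.659) with 8 lambs and -0.86 (SE 0.24, limma adjusted p = 0.0608) without ADL 3. When RES 4 was left out as well as ADL 3, LPIN2 (-1.06, limma adjusted p = 0.0159), LPIN1 (-3.39, limma adjusted p = 0.0432) and DGAT2 (1.03, limma adjusted p = 0.0436) passed. Without ADL 3, LPIN2 also passed with age as a covariate (-0.77, limma adjusted p = 0.0291) and with quality weights (-1.06, limma adjusted p = 0.0165), and DGAT2 with quality weights (1.09, limma adjusted p = 0.038).

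LPIN1 made up 86.3, 88.8 and 74.5% of the summed lipin TPM in ADL 1, ADL 2 and ADL 4 and 41.8% in ADL 3. In RES it was 35.6, 29.8, 78.1 and 70.9%. The sum of the 3 lipins was 164 to 328 TPM in the ADL lambs other than ADL 3, 30.3 TPM in ADL 3 and 24.6 to 107 TPM in RES. The third lipin, LPIN3, added 6.44 to 14.9 TPM per lamb.

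DGAT1 and DGAT2 are unrelated enzymes that both add the last fatty acid of a triglyceride. DGAT2, on chromosome 15 at 53242372 to 53265832 (plus strand, 8 exons), had 18.1, 26.9, 29.8 and 15.9 TPM in ADL 1 to ADL 4 and 53.5, 34.8, 37.0 and 22.0 TPM in RES 1 to RES 4. RES 1, RES 2 and RES 3 exceeded every ADL lamb, and RES 4 lay inside the ADL range. The exact permutation p of DGAT2 with 8 lambs was 0.114 (two-sided). In log2 units RES lay 0.67 above ADL (SE 0.29, limma adjusted p = 0.501, unadjusted 0.0448) with 8 lambs and 0.81 (SE 0.30, limma adjusted p = 0.112) without ADL 3, and it did not pass.

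DGAT1, on chromosome 9 at 13503494 to 13510935 (plus strand, 8 exons), had 53.5, 35.5, 29.9 and 36.8 TPM in ADL 1 to ADL 4 and 33.4, 44.3, 38.2 and 43.4 TPM in RES 1 to RES 4, with the groups mixed. It rested on the fewest reads of the 10 genes in 6 of the lambs, 224 to 337 per lamb. The RES over ADL value was 0.06 (SE 0.20, limma adjusted p = 0.950) with 8 lambs and -0.06 (SE 0.18, limma adjusted p = 0.863) without ADL 3. The ratio of DGAT1 to DGAT2 was 2.96, 1.32, 1.01 and 2.31 in ADL 1 to ADL 4 and 0.625, 1.27, 1.03 and 1.97 in RES 1 to RES 4, so the groups overlapped. The length listed for DGAT1 is shorter than its known coding region in other mammals; if it is too short, the TPM of DGAT1 and the level of this ratio are too high in all lambs alike.

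MTTP loads triglyceride onto apolipoprotein B and lies on chromosome 6 at 25011315 to 25065725 (minus strand, 18 exons). It had 205, 99.8, 234 and 137 TPM in ADL 1 to ADL 4 and 204, 158, 182 and 183 TPM in RES 1 to RES 4. The RES lambs lay within the ADL range, and ADL 3 was the highest. In log2 units RES lay 0.18 above ADL (SE 0.26, limma adjusted p = 0.859) with 8 lambs and 0.36 (SE 0.23, limma adjusted p = 0.335) without ADL 3, with 169 ± 61.4 TPM in ADL and 182 ± 18.7 in RES (SD, n = 4 each).

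**Figure D3:**
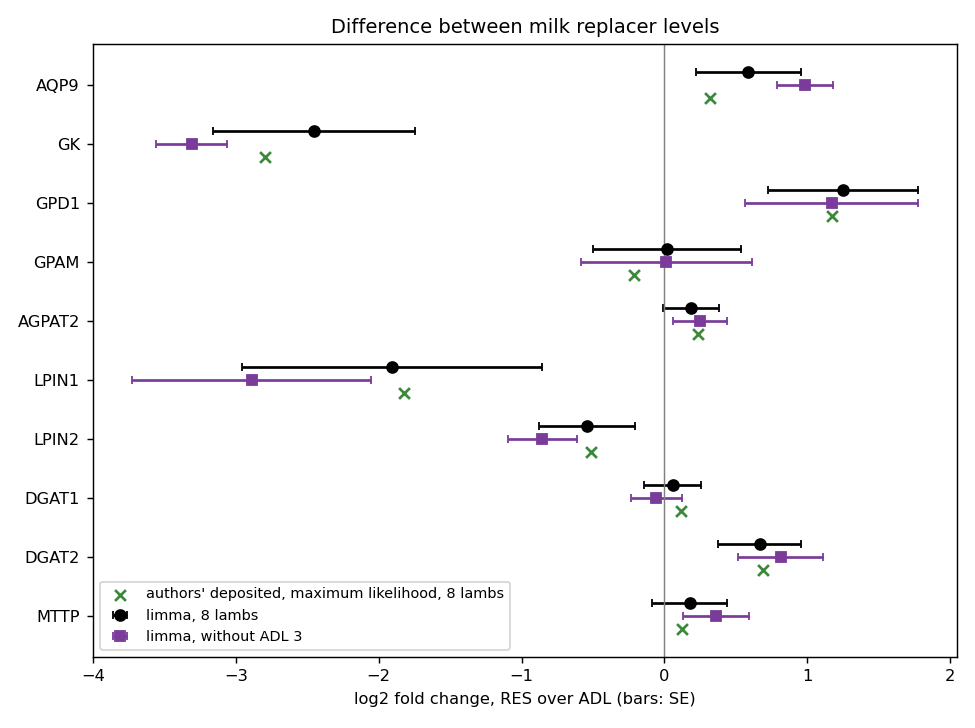
Log2 fold change, RES over ADL, of the 10 genes in pathway order, with SE bars for limma with 8 lambs (circles) and without ADL 3 (squares), and the maximum likelihood value of the authors' deposited DESeq2 comparison of 8 lambs (crosses, no error shown). GK and LPIN1 lie farthest to the left, at -2.45 and -1.91 with 8 lambs, and the values of GPAM, AGPAT2, DGAT1 and MTTP lie near 0.

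All 10 genes passed the filter of a mean of 1 TPM. Limma called none of them with 8 lambs, where it called 0.00724% of 13812 genes, while 3 of the 10 (GK, GPD1 and DGAT2) had an unadjusted p under 0.05 against 9.70% of all genes. Without ADL 3 it called 2 of 10, GK lower and AQP9 higher, where it called 10.0% of 13815 genes (2.42% higher and 7.59% lower), and 5 of 10 had an unadjusted p under 0.05 (29.6% of all genes). With 10 genes, these counts were read as no result about the members as a group. Rescaling the libraries by median-of-ratios factors moved the median of all genes without ADL 3 from -0.13 to 0.01 and the calls from 334 higher and 1048 lower to 619 and 552, and kept both members' calls. The authors' deposited table calls 1 of the 10, GK, against 2.30% of its genes (1.05% lower in RES). None of the 10 had groups without overlap in the 8 lambs (4.48% of all genes had, 2.80% higher and 1.68% lower in RES). Without ADL 3 the groups of GK and LPIN1 (lower) and AQP9 (higher) did not overlap, 3 of 10 against 27.8% of all genes (21.7% lower and 6.16% higher).

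The members did not move as a block. The median log2 fold change of the 10 was 0.12 with 8 lambs and 0.13 without ADL 3, against -0.04 and -0.13 over all genes tested, with 7 and 6 of the 10 above 0. The summed TPM of the 10 was 910 to 1183 in ADL and 967 to 1095 in RES. AQP9 held 14.9 to 29.3% of that sum in ADL 1, ADL 2 and ADL 4, 57.9% in ADL 3 and 40.3 to 45.1% in RES. The plot of deviations by lamb shows 3 patterns side by side. GK had the first, shared by LPIN1 apart from RES 3 and RES 4 and by LPIN2 apart from RES 4. AQP9 had its opposite, and GPD1 and GPAM had an order in which ADL 1 and ADL 2 lay far apart.

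**Figure D4:**
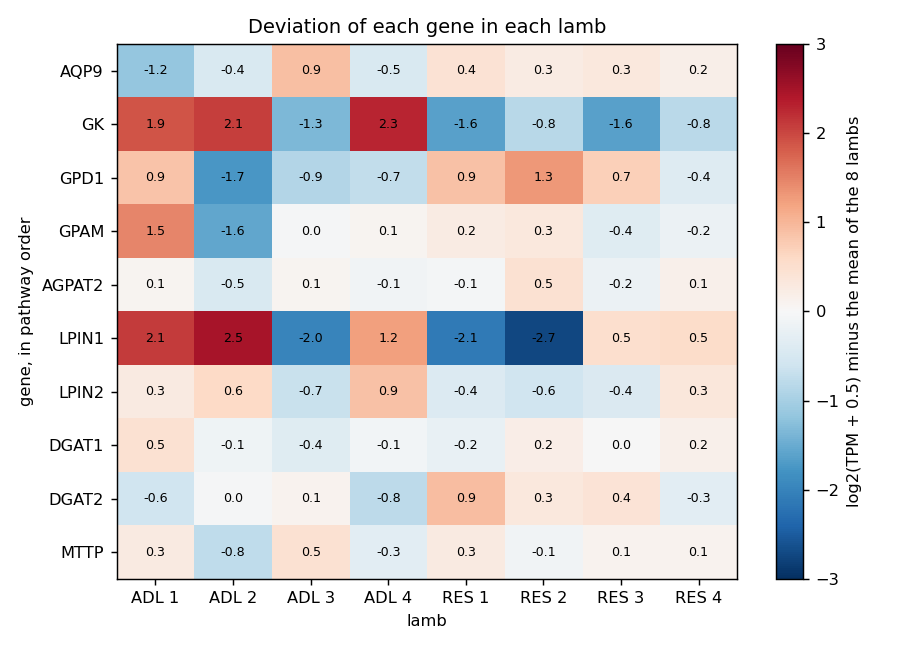
Deviation of log2(TPM + 0.5) from the mean of the 8 lambs for each gene (rows, in pathway order) and lamb (columns), red above and blue below the mean. GK was 1.89 to 2.29 above its mean in ADL 1, ADL 2 and ADL 4 and below it in the other lambs, and LPIN1 ranged from -2.74 in RES 2 to 2.48 in ADL 2.

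For the genes whose highest and lowest lambs differed more than 4-fold, the 3 closest patterns among 11006 tested genes with a symbol were sought by the root mean square (RMS) difference of these deviations over the 8 lambs. GK was closest to CTH, the last enzyme of cysteine synthesis (0.30, against an RMS deviation of 1.64 of GK itself), MTMR7, a myotubularin-related protein (0.32), and PAPSS2, which makes the sulfate donor of sulfotransferases (0.38). CTH had 397 to 553 TPM in the ADL lambs other than ADL 3, 37.2 TPM in ADL 3 and 34.2 to 92.0 TPM in RES. AQP9 was closest to PTPRR (0.20), SERPINF2, the plasmin inhibitor (0.20), and STEAP3, a metalloreductase (0.20), against its own 0.61. SERPINF2 had 528 to 763 TPM in the ADL lambs other than ADL 3, 1468 TPM in ADL 3 and 1340 to 1396 TPM in RES.

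LPIN1 had TTLL6 (0.81) and GLCE (0.89) among its closest genes, against its own 1.89. GPD1 was closest to RASSF6, the potassium channel KCNJ2 and the mitochondrial glutamate carrier SLC25A22 at 0.41 to 0.43 against 1.01. GPAM was closest to FAM188B, the deubiquitinase USP2 and the protease CAPN5 at 0.30 to 0.35 against 0.78. The same libraries enter each of these comparisons, so the likeness is a description of 8 lambs.

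Other genes of the pathway were read from 5 lists of 65 names, of which 60 were matched and 54 tested. None was called with 8 lambs, 15 of 54 (27.8%, against 9.70% of all genes) had an unadjusted limma p under 0.05, and 3 of 57 (5.26%, against 2.30%) were called in the authors' deposited table. Without ADL 3, limma called 15 of the 54, 4 higher and 11 lower in RES, against 2.42% and 7.59% of all genes. In the 8 lambs the groups did not overlap in 3 of 54, TKFC and SREBF1 (higher in RES) and MOGAT1 (lower), against 4.48% of all genes. As the lists were chosen with earlier results of these data known, these shares were read as no result about the lists.

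Genes of glycerol entry and handling went both ways. Of 9 tested, 3 rose and 3 fell without ADL 3, against 2.42% and 7.59% of all genes. Their median log2 fold change was -0.39, against -0.13 over all genes (-0.12 against -0.04 with 8 lambs). TKFC, the kinase of dihydroxyacetone and glyceraldehyde, had 9.74 to 11.4 TPM in ADL, ADL 3 included, and 43.0, 30.5, 35.1 and 17.4 TPM in RES 1 to RES 4. Its log2 fold change was 1.48 with 8 lambs (SE 0.25, limma adjusted p = 0.166; exact permutation p = 0.0286, the smallest that 70 assignments allow), and without ADL 3 it rose by 1.53 (SE 0.27, limma adjusted p = 0.018). TKFC was also called in the authors' deposited table, with an adjusted p of 1.67e-05.

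GPD1L, a paralog of GPD1, fell by 1.02 without ADL 3 (limma adjusted p = 0.0418), with 12.6 to 27.4 TPM in the ADL lambs other than ADL 3, 8.11 TPM in ADL 3 and 7.32 to 10.9 TPM in RES. AQP7, the glycerol channel best known from fat cells, fell by 1.72 (limma adjusted p = 0.0414). AQP11 (0.96, limma adjusted p = 0.0443) and glycerate kinase GLYCTK (1.54, limma adjusted p = 0.0465) rose. With 8 lambs their limma adjusted p was 0.366 and 0.625. ADL 3 lay inside the RES range for both. AQP11 had 5.34 TPM in ADL 3 and 4.38 to 8.12 TPM in RES, and GLYCTK had 17.9 and 5.78 to 19.4 TPM. GPD2, the mitochondrial partner of GPD1, stayed at 0.872 to 1.76 TPM.

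AQP7 had 283, 69.8, 31.1 and 103 TPM in ADL 1 to ADL 4 and 28.99 to 43.1 TPM in RES. AQP3, a second glycerol channel, had 82.0, 14.7, 32.2 and 22.6 TPM in ADL 1 to ADL 4 and 10.4 to 16.6 TPM in RES, with a log2 fold change of -1.26 with 8 lambs (SE 0.44, limma adjusted p = 0.41) and an adjusted p of 0.0453 in the authors' deposited table. ADL 1 was the highest lamb for both. Of 6 adipocyte markers, LEP was at 0 in every lamb and ADIPOQ at 0.116 TPM in ADL 1 and at most 0.0357 TPM elsewhere, while PLIN1, CIDEC, FABP4 and PLIN4 brought the sum to 5.37 to 23.4 TPM in ADL and 3.57 to 9.39 TPM in RES. Of 5 cholangiocyte markers, all above 0, the sum was 30.9 to 119 TPM in ADL and 10.5 to 89.5 TPM in RES, led by SPP1 in RES 4 (81.9 TPM) and ADL 3 (79.0 TPM). The other 4 summed to 46.2, 19.2, 39.7 and 23.8 TPM in ADL 1 to ADL 4 and 18.6, 8.21, 16.7 and 7.63 TPM in RES 1 to RES 4, lower in every RES lamb than in any ADL lamb. Among them KRT19 is called lower in the authors' deposited table (maximum likelihood log2 fold change -1.61, adjusted p = 0.00699). In the same DESeq2 comparison EPCAM is at -1.42 (adjusted p = 0.0573), KRT7 at -1.25 (adjusted p = 0.144) and SOX9 at -0.25 (adjusted p = 0.833). SOX9 was highest in RES 3, at 2.89 TPM against 1.80 to 2.28 TPM in ADL. The part of either cell type in these channels was not tested.

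The list of other acyltransferases and phosphatases also holds genes of other roles, such as ABHD5. Of its 14 tested genes, 3 fell and none rose without ADL 3, against 7.59% and 2.42% of all genes. Their median log2 fold change was -0.45, against -0.13 over all genes (-0.22 against -0.04 with 8 lambs). GPAT3, an endoplasmic reticulum counterpart of GPAM, fell by 1.86 (SE 0.30, limma adjusted p = 0.0132), with 13.1 to 22.1 TPM in the ADL lambs other than ADL 3, 1.33 TPM in ADL 3 and 2.70 to 6.52 TPM in RES. ABHD5, the coactivator of the triglyceride lipase PNPLA2, fell by 1.53 (SE 0.21, limma adjusted p = 0.00896). MOGAT1, which acylates monoacylglycerol, fell by 1.09 (SE 0.25, limma adjusted p = 0.0357), with 80.5, 61.3, 56.9 and 98.7 TPM in ADL 1 to ADL 4 and 47.6, 24.8, 34.5 and 44.3 TPM in RES 1 to RES 4. ADL 3 lay near its group in MOGAT1, whose adjusted p in the authors' deposited table is 0.0178. GPAT4, another first-step enzyme whose TPM exceeded those of GPAM and GPAT3 in every lamb, was at 32.9 to 61.0 TPM with a log2 fold change of 0.02 (limma adjusted p = 0.984).

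Of the 9 tested genes that supply acyl-CoA, 1 fell and none rose without ADL 3, against 7.59% and 2.42% of all genes. Their median log2 fold change was -0.43, against -0.13 over all genes (-0.15 against -0.04 with 8 lambs). The gene that fell was ACSL1, the main long-chain acyl-CoA synthetase of liver (-1.93, SE 0.23, limma adjusted p = 0.00416). ACSL1 had 505 to 697 TPM in the ADL lambs other than ADL 3, 45.4 TPM in ADL 3 and 118 to 224 TPM in RES. The fatty acid binding protein FABP1 had 614 ± 269 TPM in ADL and 1318 ± 613 in RES (SD, n = 4 each) and did not pass (limma adjusted p = 0.496 with 8 lambs and 0.153 without ADL 3).

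Of 11 tested genes of lipoprotein assembly and export, 1 fell without ADL 3, against 7.59% of all genes. The median log2 fold change was 0.01, against -0.13 over all genes (0.00 against -0.04 with 8 lambs). SAR1B, a GTPase of vesicles that leave the endoplasmic reticulum, fell by 0.77 (SE 0.17, limma adjusted p = 0.0333). APOB, the partner of MTTP, had 363 to 613 TPM in ADL and 411 to 509 TPM in RES, with a log2 fold change of 0.02 (limma adjusted p = 0.984). APOC3 had 11068 ± 4429 TPM in ADL and 5631 ± 1816 in RES (SD, n = 4 each) and did not pass (limma adjusted p = 0.453 with 8 lambs and 0.0781 without ADL 3).

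Of 11 tested transcriptional regulators, 3 fell and 1 rose without ADL 3, against 7.59% and 2.42% of all genes. Their median log2 fold change was -0.38, against -0.13 over all genes (-0.27 against -0.04 with 8 lambs). The fasting and fatty acid responsive factor CREB3L3 fell by 1.85 (limma adjusted p = 0.0135), FOXA2 by 1.19 (limma adjusted p = 0.0266) and the orphan receptor ESRRA by 0.98 (limma adjusted p = 0.011). MLXIPL, the carbohydrate response factor ChREBP, rose by 1.27 (SE 0.23, limma adjusted p = 0.0182), with 8.20 to 16.7 TPM in the ADL lambs other than ADL 3, 39.9 TPM in ADL 3 and 28.8 to 33.7 TPM in RES. SREBF1 had 2.31 to 4.43 TPM in ADL and 4.77 to 14.1 TPM in RES and did not pass (limma adjusted p = 0.41 with 8 lambs and 0.102 without ADL 3).

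**Figure D5:**
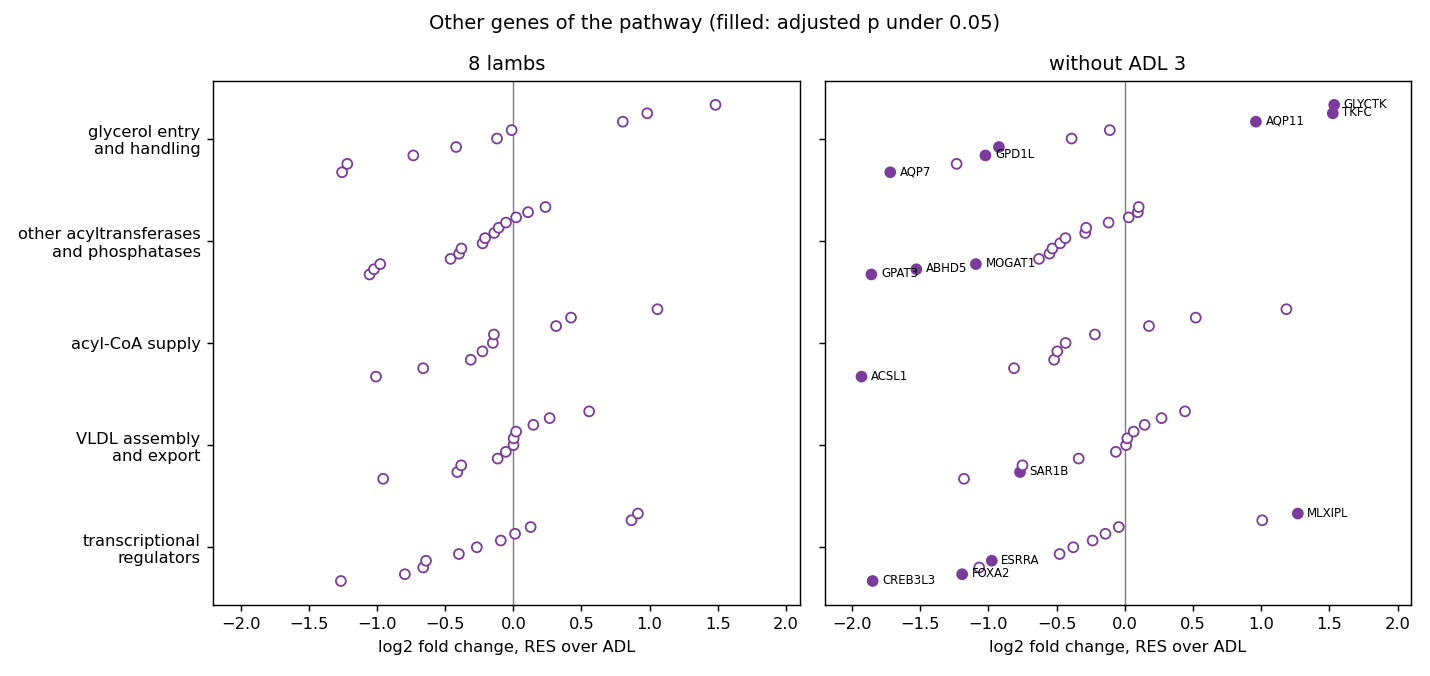
Log2 fold change, RES over ADL, of the 54 tested genes of 5 lists, with 8 lambs (left) and without ADL 3 (right), where filled points have a limma adjusted p under 0.05 and most of them carry their symbol. No point is filled with 8 lambs, and 15 are filled without ADL 3, 11 of them to the left of 0.

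With 8 lambs the adjusted p of those 15 genes was 0.166 or more. Of the 15 calls, GPAT3, ABHD5, ACSL1 and ESRRA were kept when any 1 of the other 7 lambs was also left out (adjusted p up to 0.0447). The call of MLXIPL was lost without RES 1 (adjusted p = 0.0579), that of CREB3L3 without ADL 1 (0.051), and that of TKFC without ADL 1, ADL 4 or RES 3 (up to 0.0607). The other 8 calls were each lost in 3 to 6 of the 7 cases, and the number of glycerol entry and handling genes called fell from 6 to 0 without ADL 4 or RES 3. Without the filter on low values, TKFC alone of those 6 was kept.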

How the data were processed

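Poly(A) RNA libraries, 1 per lamb, were read as pairs on an Illumina HiSeq, per the labels' protocols. The authors used bcl2fastq 1.8.4 and DESeq2 1.12.4, per the submitters' processing notes. For the aligner, the counter and the build, a name was not given in the sources used here. Expression values are TPM as deposited by the authors. The deposited comparison gives, per the file headers, a mean signal, log2 fold changes, a test score and p-values, and is quoted as the authors'. Reads were recovered from TPM times gene length (100% whole within 0.001), and their scaled means equalled the deposited means in 22465 genes.

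Genes whose mean TPM reached 1 entered limma (version 3.58.1, R 4.3.3) on log2(TPM + 0.5) with a trended prior, two-sided, Benjamini-Hochberg adjusted, threshold 0.05, with 8 lambs and without ADL 3. Single genes were also given two-sided exact permutation tests (scipy 1.17.1), unadjusted. The fit was also run on simulated reads with the same spread in every gene and no lamb like ADL 3. That run does not bear on the spread of the real lambs or on ADL 3. Members and lists were chosen with earlier results of these data known. Named are all members, up to 4 called genes (or else the gene with the smallest p) of each list, closest patterns, and AQP3, AQP11, GLYCTK, GPD2, GPAT4 and APOB, added after their values were seen, as were the ratios and shares between members. A few further genes are not reported here. Separate lambs are the replicates; reads of similar genes can be miscounted. No sequence is shown, since no sequence table was used here. Alternatives were other pseudocounts and filters, rescaling, a block, age, quality weights, voom and leaving out each lamb.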

Additional observations from a re-analysis of the deposited data

Results flagged for a closer look

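Among 26 named genes in 2 groups each, 2 values lay far from the other 3 lambs of their group, a gap that chance gives in about 1 of 20 groups, and 52 groups were tested. LPIN2 had 21.2 TPM in RES 4, against 10.9 to 12.3 TPM in the other RES lambs. ABHD5 had 23.1 TPM in RES 2, against 13.0 to 13.8 TPM in the other RES lambs.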

How the results depend on the processing

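With 8 lambs the counts were 1 of all genes and 0 of the 10 members. They were 0 genes without the filter, with median-of-ratios rescaling and with lamb number as a block, and 1969 genes and 5 members (GK, GPD1, AQP9, LPIN2 and DGAT2) with quality weights. Those weights were estimated from the same group fit and gave ADL 3 0.16, so that fit leans little on ADL 3. GK was at -3.43 in it, against -3.31 without ADL 3. Leaving out 1 lamb gave 0 to 1382 genes and 0 to 2 members. Without ADL 3 the counts were 1382 genes and 2 members. They became 870 genes without the filter, 106 genes and 1 member (GK, with AQP9 at an adjusted p of 0.108) with the block, 3 members with age (LPIN2 added) and 4 with quality weights (LPIN2 and DGAT2 added); rescaling gave 1171 genes and voom on recovered reads 1364. Leaving out 1 more lamb gave 323 to 1145 genes and 1 to 5 members. GK stayed called in all 16 alternatives without ADL 3 (log2 fold change -3.54 to -3.16, adjusted p up to 0.0169). In the order glycerol entry and handling, other acyltransferases, acyl-CoA supply, lipoprotein assembly and regulators, list calls with 8 lambs went from 0 in each to 6, 3, 3, 1 and 5 with quality weights and to 0 to 6, 0 to 3, 0 to 1, 0 to 1 and 0 to 4 on leaving out 1 lamb. Without ADL 3 they went from 6, 3, 1, 1 and 4 to 0, 1, 0, 0 and 1 with the block, where GPAT3 and CREB3L3 stayed called (adjusted p = 0.0303 and 0.0494) and ABHD5, ACSL1 and ESRRA did not (0.0778, 0.0596 and 0.0844). Leaving out 1 more lamb gave 0 to 5, 2 to 3, 1 to 3, 0 to 1 and 2 to 4. Glycerol entry and handling had 1 call without the filter, 3 with age and 3 with voom, acyl-CoA supply 2 with rescaling, quality weights or voom, and lipoprotein assembly 2 with age.

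Signs turned for 3 members, none of them called. With 8 lambs, leaving out 1 lamb took GPAM from -0.50 to 0.51, DGAT1 from -0.056 to 0.22 and MTTP from -0.049 to 0.36. GPAM also turned to -0.23 with age as a covariate and is -0.21 in the authors' deposited table, and DGAT1 turned to -0.0057 with age and -0.011 with quality weights. Without ADL 3, leaving out 1 more lamb took GPAM from -0.76 to 0.75 and DGAT1 from -0.16 to 0.13. GPAM turned to -0.0048 with a pseudocount of 1 and -0.14 with age, and DGAT1 to 0.091 with rescaling. The cause was not tested. Deviations of same-numbered lambs correlated at -0.04 to 0.16 across genes, over 0.1 in 2 of 4 pairs. Of the 4 ADL lambs, 1 correlated best with its own number. With 4 pairs, these values cannot settle whether lamb numbers pair the lambs. With 3 ADL lambs, no exact permutation p can fall below 0.0571.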
